A study of Mus musculus with 42 samples.

Results

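Proteases cut other proteins, and the genes described here encode the main families that remodel the extracellular matrix and the lysosome, together with their inhibitors. They were chosen by name from the array's gene annotation: matrix metalloproteinases (Mmp), their tissue inhibitors (Timp), ADAM and ADAMTS proteins, plasminogen activators and their receptor, cathepsins and serpins. The platform carried 113 such symbols. For 36 of them both arrays of at least 15 of the 21 tumours gave a value, and these 36 are the measured genes of this account. The other 77 were not tested on the same footing. Over the whole platform 7629 of 15096 gene symbols passed the same filter.

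Matrix metalloproteinases are zinc enzymes that cleave collagens and other matrix proteins, and the Timp proteins block them by occupying the active site. ADAM proteins mostly sit in the membrane and release the outer parts of growth factors, cytokines and receptors. Plasminogen activators turn plasminogen into plasmin at the cell surface, cathepsins degrade proteins in lysosomes, and serpins are suicide inhibitors of proteases, although some have lost that activity. In mammary tumours many of these enzymes are made by fibroblasts and macrophages as well as by the tumour cells.

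The RNA came from 21 mammary neoplasms that descended from mice carrying FVB/N-Tg(WapMyc)212Bri, a c-Myc transgene driven by Wap, a milk protein gene promoter that is active in secretory mammary epithelium. All tumours share this transgene, and no normal gland or tumour without it was analysed here. Per the labels, selection in living mice gave 4 lines: a glandular line, solid/comedo lines with and without lung metastases, and a spindloid (mesenchymal) line. Which line a tumour belongs to is not labelled. The comparison is therefore between tumours known by number, and tumours of the same line cannot be recognised. Each tumour RNA was hybridised on 2 arrays with the dyes swapped, always beside the Universal Mouse Reference. The p-values therefore measure the error between 2 hybridisations of an RNA and not the spread between animals.

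A level below is a log2 ratio of tumour to reference RNA, averaged over the tumour's 2 arrays, after each array was centred on its median over the 7629 genes. The overall sign of the ratios is not given in the sources used here and was set so that Myc came out positive. With the other sign, each highest tumour would be the lowest. Arrays gave 8600 to 21328 measured probes of 22800 (median 17478.5), and their number limits the precision. Before turning for the dye swap, 20 of the 21 pairs of arrays correlated below 0. After turning, the arrays of tumour 656 still correlated at -0.0743 and those of 639, 646, 647 and 660 at 0.0584 to 0.0895. The count of genes that passed is also given without them, as are several results that hold their values.

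The promoters of 25 of the 36 genes were found in RefSeq's table for GRCm38.p6, as 28 windows that run from 250 bases before to 50 bases after a start. An AP-1 site, spelled TGANTCA on either strand, is the site of Fos and Jun proteins and is the textbook element of collagenase and stromelysin genes. It stood in 6 of the 28 windows (21.4%), against 7.81% of all 32851 windows in the table. These belonged to Mmp3, Mmp10, Mmp13, Plaur, Adam19 and Serpina1d. A TATA box (TATAAA) stood in 14.3% of the genes' windows and in 13.6% of all windows. The Myc E-box (CACGTG) stood in 14.3% against 7.15%, the GC box (GGGCGG) in 53.6% against 35.7%, and the Ets core (AGGAAGT) in 10.7% against 9.35%. Each motif was searched on both strands, and a match is a description of letters, not a bound site. The 100 bases before the start of 4 of the AP-1 genes are shown because 3 of them lie close together in the metalloproteinase cluster of chromosome 9, 2 coding genes between Mmp13 and Mmp3 and 1 between Mmp3 and Mmp10. Of these 3 only Mmp3 passed the test described below. The standard error of a difference between 2 tumours was 0.55 for Mmp3, 1.89 for Mmp13 and 1.79 for Mmp10. The calls therefore do not show that the neighbours behaved differently. Capitals mark the AP-1 site and the TATA box, and all 4 genes are on the plus strand.
Mmp3: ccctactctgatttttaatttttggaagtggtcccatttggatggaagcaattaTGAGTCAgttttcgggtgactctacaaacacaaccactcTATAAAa
Mmp10: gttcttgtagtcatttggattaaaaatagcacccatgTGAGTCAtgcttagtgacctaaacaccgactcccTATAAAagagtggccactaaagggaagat
Mmp13: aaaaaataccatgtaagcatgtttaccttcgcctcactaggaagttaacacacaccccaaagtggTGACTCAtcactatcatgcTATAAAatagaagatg
Plaur: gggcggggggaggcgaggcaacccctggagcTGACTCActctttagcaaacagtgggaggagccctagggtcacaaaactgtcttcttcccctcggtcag
The stretches are chr9:7445722-7445821 for Mmp3, chr9:7502242-7502341 for Mmp10, chr9:7272414-7272513 for Mmp13 and chr7:24462383-24462482 for Plaur. The AP-1 site begins 46 bases before the annotated start in Mmp3, 63 in Mmp10, 35 in Mmp13 and 69 in Plaur. The TATA box begins 7, 29 and 16 bases before the start in Mmp3, Mmp10 and Mmp13, and the Plaur window has none.

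Differences between the 21 tumours were tested with limma's moderated F test, adjusted over all 7629 genes by Benjamini-Hochberg with a threshold of 0.05. Of the 36 genes 24 differed between tumours (66.7%), against 1928 of 7629 genes, or 25.3%. At an unadjusted p under 0.05 the counts were 27 of 36 and 2871 of 7629. The median gene of the 36 spanned 3.81 on the log2 scale from its highest to its lowest tumour, against 2.50 for all genes tested. Its tumour means had an SD of 1.11, against 0.663 for all genes, while the SD between the arrays of a tumour was 0.811, against 0.686. The larger spread of these genes was thus accompanied by a somewhat larger hybridisation error. By family the calls were 3 of 6 metalloproteinases, 3 of 3 Timp genes, 7 of 8 ADAM genes, 0 of 4 ADAMTS and ADAMTS-like genes, 3 of 3 plasminogen activation genes, 4 of 6 cathepsins and 4 of 6 serpins. The share that passed depended on the scale. It was 14 of 36 without centring (38.9%), against 18.9% of all genes, and 20 with centring on all measured probes, against 19.6%. It was 15 with slide run as a block, against 17.8%, and 26 with dye orientation as a covariate, against 38.1%. Quantile normalization gave 21, against 27% of all genes, and the filter on all 21 tumours 11 of 14, against 40.3%. Keeping the files' top value gave 19 of 38, against 22.1%, and requiring only 10 tumours gave 21 of 69, against 17.4%. Leaving out tumour 656 gave 24, against 26.8%, and leaving out all 5 poorly agreeing tumours 25, against 25.7%. With dim probes left out it was 24, against 26.5%, and with the probe as the unit 23 genes passed, against 24.7% of probes. For the ADAMTS group, limma's unadjusted p was under 0.05 for 1 gene, Adamts9.

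The same 5 tumours, 644, 646, 647, 649 and 673, were high for most of the genes that differed. Among the 24 genes, tumour 649 was in the highest 5 for 20, 646 for 19, 644 for 18, 673 for 17 and 647 for 16. No other tumour was there for more than 4, or for more than 6 without centring and 5 with centring on all probes. For 11 of the 24 genes (45.8%) these 5 tumours were exactly the highest 5, and for 18 (75%) at least 4 of them were. The same tumours were the exact highest 5 for 382 of all 1928 genes that differed (19.8%) and held at least 4 of those places for 592 (30.7%), so the pattern was shared by many other genes. Without tumour 656 the counts for the 24 genes were again 11 and 18. The exceptions were Adam17, Serpini2 and Serpina1d, with none of these tumours in the highest 5, and Plat, with 1. For Adam17 and Serpini2 all of the highest 5 had at least 1 array in slide run 2, a set of slides with neighbouring serial numbers. Their calls were lost with slide run as a block.

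**Figure D1:**
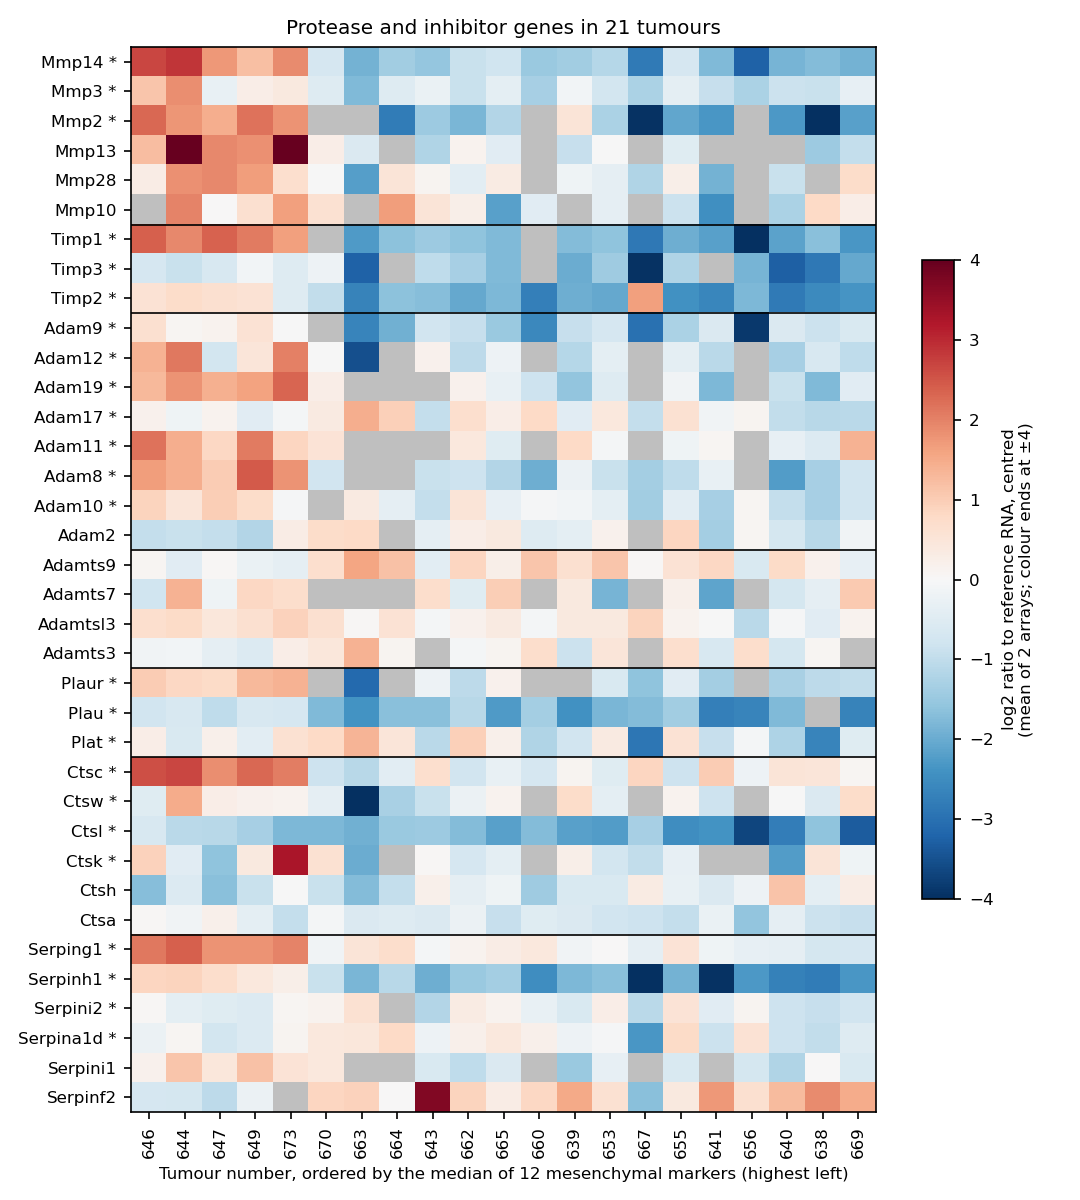
Levels of the 36 genes (rows, grouped by family, with an asterisk where the adjusted p is under 0.05) in the 21 tumours (columns, ordered by the median of 12 mesenchymal markers, highest left). Colour is the centred log2 ratio, red above 0 and blue below, ending at 4 in either direction, and grey cells lack at least 1 array; tumours 646, 644, 647, 649 and 673 at the left are red for Mmp14, Timp1, Ctsc and Serping1, where the other tumours are paler or blue.

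These 5 tumours were the only ones of the 21 with a median level above 0 for the mesenchymal markers, at 1.60 in tumour 646, 1.25 in 644, 1.03 in 647, 0.83 in 649 and 0.62 in 673. The counts of the 5 as a set, given above, were made on tumours chosen by this median. The tally of each tumour among the highest 5 did not use it. Of the 18 markers of the mesenchymal list, which includes collagens, Vim and Sparc, 12 were measured and 11 differed between tumours. In the other 16 tumours the median lay between -1.71 and -3.47. Macrophage markers (12 of 16 measured, 11 called) had their highest medians in the same tumours, at 2.46 in tumour 644, 2.04 in 646, 2.00 in 649, 1.86 in 647 and 0.94 in 673, and their lowest at -1.33 in 663. Epithelial markers (12 of 17 measured, 7 called) ran from 2.82 in tumour 667 to -0.90 in 647 and were at 1.01 or lower in all 5, as they also were in tumour 670 at 0.67. The genes of this list did not move as 1 block. Epcam, the epithelial cell adhesion molecule, was 3.77 in tumour 656 and -2.73 in 646. Krt18, a keratin of simple epithelia, was 0.99 in 665 and -2.71 in 656. Its partner Krt8 was 2.95 in 649, 1 of the 5 tumours, and 1.01 in 656 and did not pass (adjusted p = 0.194). In a ratio to a reference RNA no marker can be shown to be absent. The labelled tissue was marked by keratins and claudins whose median tumour was above 0, such as Krt8 at 2.12 and Cldn3 at 3.70. In RNA from whole tumours, fewer cells of a type and less RNA per cell cannot be told apart, and the part of these cell types in the protease differences was not tested.

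Other lists fixed for this work had few measured genes. Neutrophil markers (2 of 9 measured, 1 called) ran from a median of 4.72 in tumour 660 to -1.42 in 667, and mast cell markers (2 of 6, 1 called) from 1.56 in 641 to -1.03 in 663. Endothelial markers (2 of 8, 0 called) ran from 1.42 in 673 to -0.69 in 660. Of the endothelial genes, 1 (Tie1) had an unadjusted p under 0.05 by limma, and of the adipocyte genes 0. Milk genes (4 of 8, 3 called) reached 3.69 in tumour 638 and were lowest in 669, skeletal muscle genes (3 of 5, 2 called) ran from 7.31 in 673 to -0.54 in 662, and adipocyte genes (3 of 5, 0 called) from 1.39 in 639 to -1.17 in 647. Tumour 673, which was high for many proteases, therefore also held the highest muscle gene levels, and the part of muscle in its values was not tested.

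Mmp14, the membrane-anchored metalloproteinase that activates the gelatinase Mmp2 and cleaves collagen itself, gave the smallest p of the 36 genes. Its level was 2.85 in tumour 644 (arrays 3.10 and 2.60), 2.67 in 646, 1.90 in 673, 1.74 in 647 and 1.22 in 649. The other 16 tumours ran from -0.66 in 655 to -3.23 in 656 (arrays -2.72 and -3.74), with a median over all 21 of -1.38. These groups of values left a gap from 1.22 to -0.66 with no tumour in it. The span of 6.08 compares with a standard error of 0.45 for a difference between 2 tumours (adjusted p = 1.18e-09, limma). Of the 210 pairs of tumours 95 differed. Within slide run 1, a set of slides with neighbouring serial numbers, tumour 644 at 2.85 stood beside 638, 639 and 640 at -1.72, -1.40 and -1.86. Within run 3, tumours 673, 647 and 649 at 1.22 or more stood beside 641, 643, 667, 669 and 670 at -0.67 or less. Run 2 held none of the 5 tumours. With slide run as a block the adjusted p was 2.25e-08, and without the 5 tumours whose arrays agreed poorly, which include 646 and 647, it was 8.15e-07.

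Mmp2, the gelatinase that Mmp14 activates, was measured on both arrays of 17 tumours and had the same 5 tumours on top with a larger error. It was 2.31 in tumour 646, 2.18 in 649, 1.78 in 673, 1.76 in 644 and 1.45 in 647. Tumour 639 followed at 0.50, and all others were below 0, down to -4.71 in 638, whose arrays read -2.01 and -7.40. The standard error of a difference was 1.40 and the adjusted p 0.00647, with 12 pairs of tumours apart. Tumours 656, 660, 663 and 670 had a value on 1 array only.

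Mmp3, or stromelysin-1, which degrades a broad range of matrix proteins, showed a narrower pattern. It was 1.86 in tumour 644 and 1.12 in 646, then 0.39 in 673 and 0.27 in 649, while 647 was at -0.29 among the other tumours. The lowest was -1.76 in 663, the standard error of a difference 0.55 and the adjusted p 0.00237. Of the tumour pairs 27 differed, with 644 the higher in 17 of them and 646 in 8.

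Mmp13, a collagenase, had the widest span of the family but did not pass (adjusted p = 0.121). It reached 5.90 in tumour 644 (arrays 5.88 and 5.93) and 4.96 in 673 (3.70 and 6.21). Tumours 647, 649 and 646 followed at 1.93, 1.84 and 1.23, and the remaining tumours lay between 0.27 and -1.46. It was measured in 15 tumours with a standard error of 1.89 for a difference. Even so 3 pairs of tumours were called for it. Without the first array of tumour 663 it passed (adjusted p = 0.0118), as it did without the second. Mmp28 (adjusted p = 0.149) and Mmp10 (adjusted p = 0.760), the close neighbour of Mmp3, did not pass either.

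**Figure D2:**
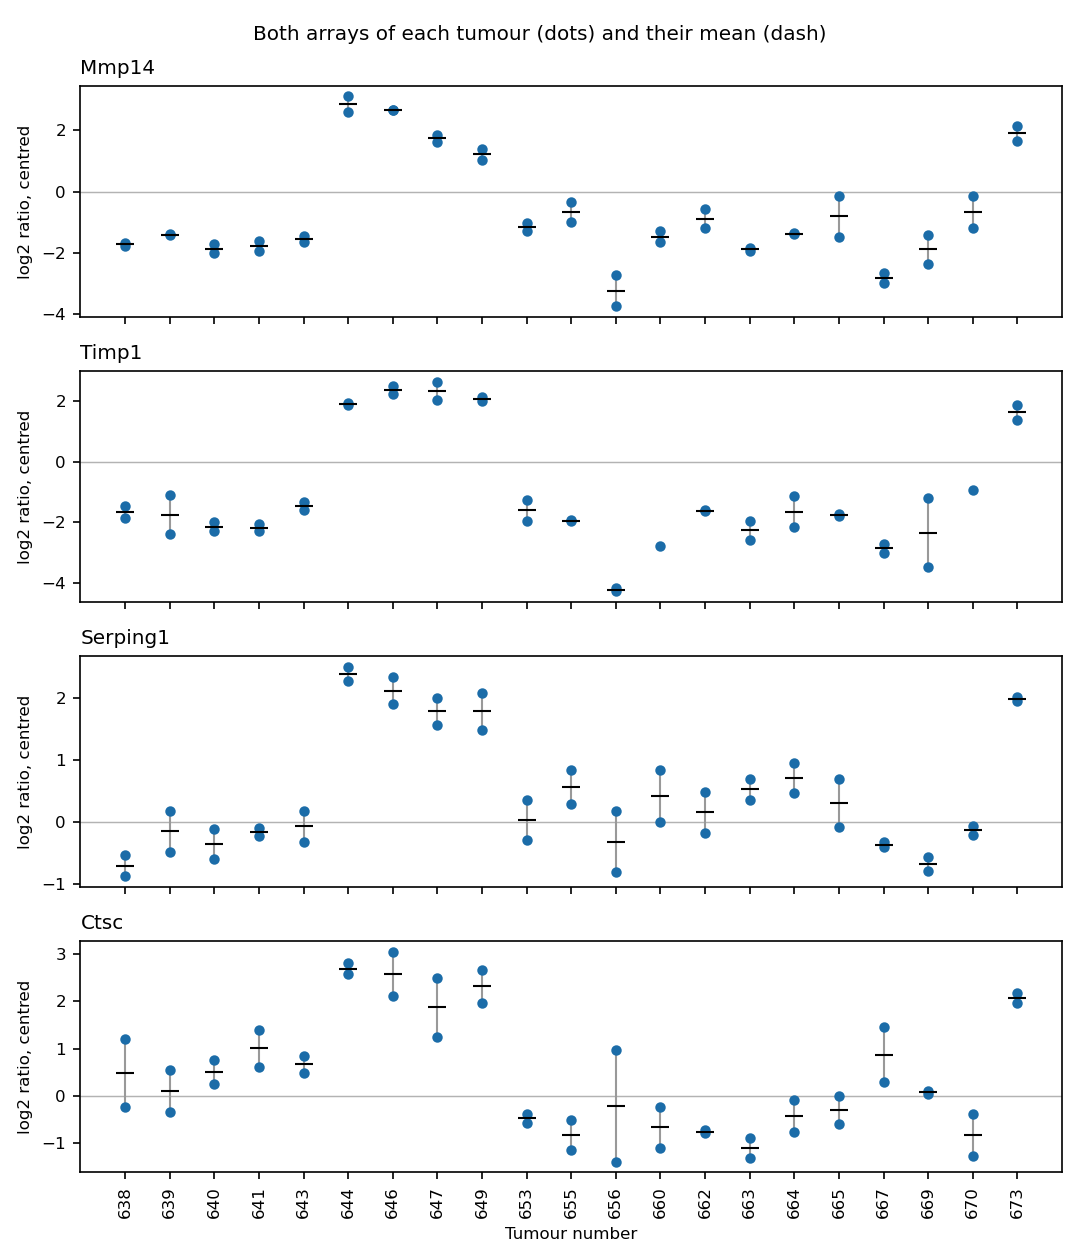
Centred log2 ratios of Mmp14, Timp1, Serping1 and Ctsc on each array (dots), with the mean of a tumour's 2 arrays (dash), for the 21 tumours along the horizontal axis. By their means tumours 644, 646, 647, 649 and 673 lie above all others in each panel, and a tumour with 1 dot (660 and 670 for Timp1) has 1 measured array.

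Timp1, a secreted inhibitor of most metalloproteinases, had the same 5 tumours on top with a wide gap below them. Its level was 2.38 in tumour 646, 2.35 in 647, 2.08 in 649, 1.91 in 644 and 1.63 in 673. The next tumour with both arrays, 643, was at -1.46, and the lowest was -4.24 in 656 (arrays -4.29 and -4.19). The span was 6.62 with a standard error of 0.53 for a difference (adjusted p = 1.15e-08, 93 pairs). Without the 5 poorly agreeing tumours the adjusted p was 6.61e-06, and with slide run as a block it was 3.88e-07.

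Timp2, which both inhibits Mmp2 and bridges it to Mmp14 for activation, passed more narrowly (adjusted p = 0.0381). Its highest mean, 1.65 in tumour 667, came from arrays at -1.96 and 5.27 that contradict each other. Tumours 644, 647, 649 and 646 followed at 0.75, 0.64, 0.58 and 0.58, then 673 at -0.51, and the lowest was -2.83 in 640. The call was lost on leaving out any of 24 single arrays of the 42, without the 5 poorly agreeing tumours (adjusted p = 0.129) and with slide run as a block (adjusted p = 0.154).

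Timp3, the matrix-bound inhibitor that also blocks Adam10 and Adam17, was below 0 in all 18 tumours measured. It was closest to 0 in tumour 649 at -0.10, in 670 at -0.21 and in 673 at -0.50, and lowest in 667 at -3.94 (arrays -2.23 and -5.65). The median was -1.37, the standard error of a difference 0.82 and the adjusted p 0.0194. The call was lost without centring, at an adjusted p of 0.0649, and under quantile normalization, at 0.0948.

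Fixed pairs of an enzyme with a Timp gene, a receptor or another enzyme were compared across tumours in 7 relations, with permutation p-values adjusted over them. Mmp14 falls into separate groups of 5 and 16 tumours, so its relations were read within the larger group. There Timp1 against Mmp14 gave r = 0.84 in the 14 tumours with both values (adjusted permutation p = 0.00154) and rho = 0.72 (adjusted permutation p = 0.0351). The relation rested on 2 low tumours. Without 656 r was 0.74 (unadjusted permutation p = 0.00405), and without 656 and 667 it was 0.52 (unadjusted permutation p = 0.0896) with rho = 0.55 (unadjusted permutation p = 0.0653). Timp2 against Mmp14 did not pass in the 16 tumours (r = -0.30, adjusted permutation p = 0.283; rho = 0.19, adjusted permutation p = 0.557), a value that holds tumour 667. Mmp2 against Mmp14 gave r = 0.51 in 12 tumours (adjusted permutation p = 0.160). Mmp2 against Timp2 gave 0.37 in 9 tumours (adjusted permutation p = 0.323) and 0.81 in 6 (adjusted permutation p = 0.160), where rho was 0.086.

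**Figure D3:**
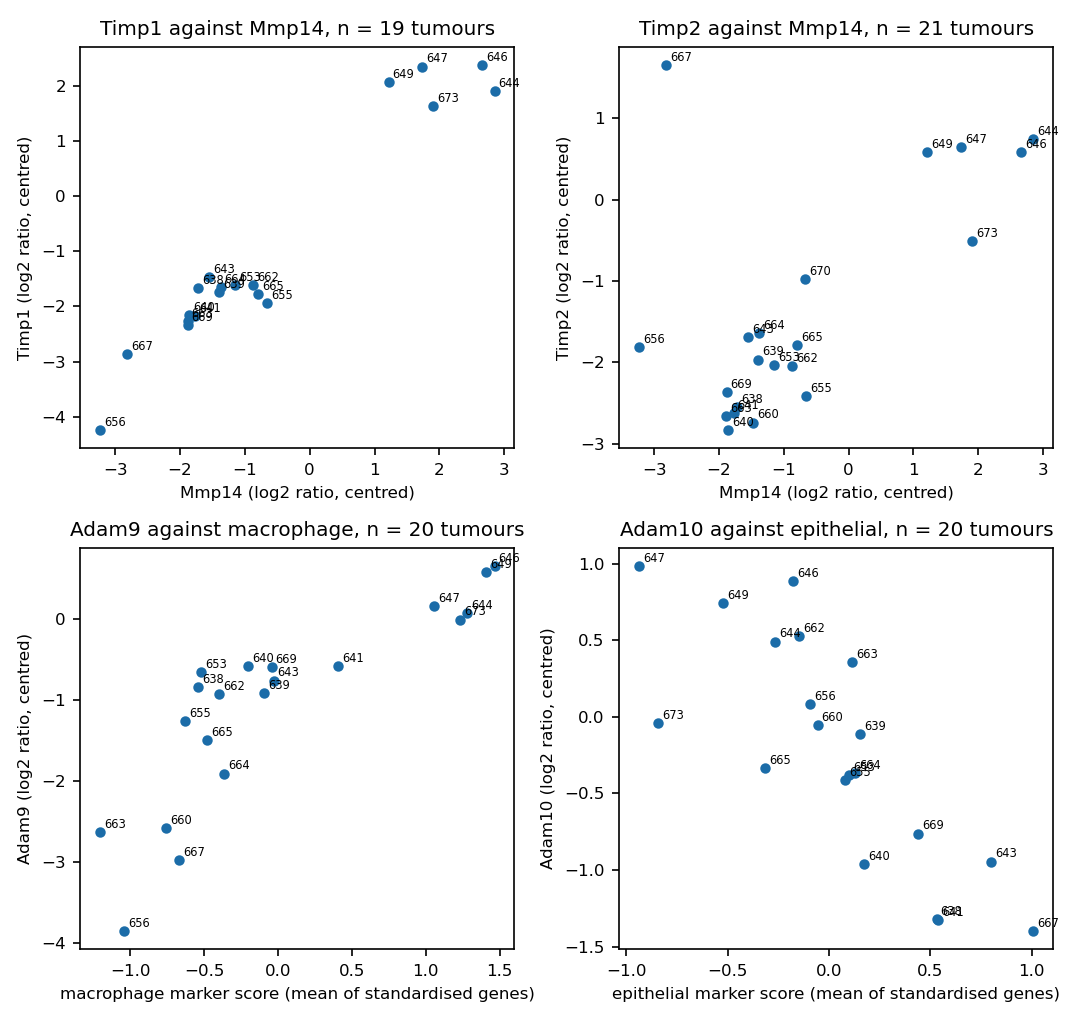
Tumour means of Timp1 and of Timp2 against Mmp14 (top), and of Adam9 against the macrophage marker score and Adam10 against the epithelial marker score (bottom), each dot a tumour with its number. Levels are centred log2 ratios and scores are means of standardised genes. Tumours 656 and 667 lie at the lower end of the lower group for Timp1 against Mmp14, tumour 667 stands alone for Timp2, and Adam10 falls from tumour 647 at the upper left to 667 at the lower right.

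Among the ADAM genes, Adam9, a membrane sheddase found in many tissues, gave the smallest p (adjusted p = 2.52e-05). It was 0.65 in tumour 646, 0.57 in 649, 0.15 in 647, 0.07 in 644 and -0.01 in 673. The median was -0.81, and the lowest 4 tumours were 660 at -2.58, 663 at -2.63, 667 at -2.97 and 656 at -3.85 (arrays -3.86 and -3.83). Of the pairs of tumours 54 differed. The lowest tumour thus lay farther from the median than the highest.

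Adam12, Adam19 and Adam8 were above 0 in most of the 5 tumours and below 0 in most others. Adam12, a protease of mesenchymal cells and muscle precursors, was 2.10 in tumour 644, 2.03 in 673 and 1.41 in 646, but only 0.47 in 649 and -0.72 in 647. Its lowest level was -3.51 in 663, from arrays at -1.61 and -5.41 (adjusted p = 0.00774). Adam19, its close relative, was 2.32 in 673, 1.80 in 644, 1.60 in 649, 1.43 in 647 and 1.28 in 646 (adjusted p = 0.0134). Among tumours with both arrays the next was at 0.25 and the lowest, 641, at -1.80. Tumours with 1 array were 667 at 1.78, 643 at -0.18, 664 at -2.64 and 663 at -4.25. Tumour 663 was the lower in 6 of the 10 pairs called for Adam19. Adam8, which is prominent in leukocytes, was 2.46 in 649, 1.79 in 673, 1.67 in 646, 1.46 in 644 and 1.00 in 647, with the next at -0.23 and the lowest, 640, at -2.25 (adjusted p = 0.0185). The calls of these 3 genes were lost without centring, at adjusted p-values of 0.0949, 0.155 and 0.222, and that of Adam8 also with slide run as a block (adjusted p = 0.0542).

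Adam10, the sheddase that cuts Notch receptors, and Adam17, which releases tumour necrosis factor, spanned less and did not share an order of tumours. Adam10 was 0.98 in tumour 647, 0.89 in 646 and 0.75 in 649, and lowest in 667 at -1.40 (standard error of a difference 0.61, adjusted p = 0.0347). Its call was lost on leaving out any of 9 single arrays, without centring (adjusted p = 0.0886) and with slide run as a block (adjusted p = 0.0731). Adam17 was highest in 663 at 1.45, followed by 664 at 0.96 and 660 at 0.79, with 646 at 0.17 and 644 at -0.16, and lowest in 638 at -1.11 (standard error 0.56, adjusted p = 0.0143). With slide run as a block the adjusted p of Adam17 was 0.277, and without centring it was 0.198. Adam11 is a catalytically inactive member known from the nervous system. Among tumours with both arrays it was 2.18 in 646, 2.08 in 649 and 1.46 in 644, and lowest in 638 at -0.53 (adjusted p = 0.0178). Tumour 664, with 1 array at -3.70, was the lower tumour in all 16 pairs called for Adam11, and the call was lost without that array. The adjusted p of Adam11 became 0.726 when the top value of the files was kept as a measurement.

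Timp3 was related to its target Adam10 over 17 tumours, with r = 0.66 (adjusted permutation p = 0.00664) and rho = 0.67 (adjusted permutation p = 0.00742). Without the 2 tumours farthest from the Adam10 median r was 0.47, and within the largest slide run it was 0.79 over 6 tumours. Those 6 included 647, 649 and 673. For either gene 4 of the highest 5 tumours were among 644, 646, 647, 649 and 673. The relation therefore also holds the difference between these tumours and the others, and the relation within the others was not tested. Adam17 had groups of its own, and the larger held 644, 646, 647, 649 and 673. Timp3 against Adam17 gave r = -0.59 over 13 tumours of that group (adjusted permutation p = 0.132). Adam2, a sperm surface protein, did not pass (adjusted p = 0.0931), nor did the matrix enzymes Adamts9 (0.0814), Adamts7 (0.25) and Adamts3 (0.763) or the related Adamtsl3 (0.533), which lacks a protease domain, these being adjusted p-values of limma. Adamts9 and Adamts3 were highest in tumour 663, at 1.59 and 1.40, with none of the 5 tumours among their highest 5. All of their highest 5 had at least 1 array in slide run 2.

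All 3 plasminogen activation genes differed between tumours, with the same 5 tumours on top for Plaur and Plau and others for Plat. Plaur, the receptor that holds urokinase at the cell surface, was 1.39 in tumour 673 (arrays 1.33 and 1.46), 1.31 in 649, 1.02 in 646, 0.81 in 644 and 0.77 in 647. The next of its 16 tumours was at 0.16, and the lowest was 663 at -3.10 (arrays -2.48 and -3.72). The standard error of a difference was 0.56, the adjusted p 3.66e-04 and the number of tumour pairs apart 38. Plau, urokinase itself, had the same 5 tumours on top at -0.63 in 644, -0.65 in 649, -0.66 in 673, -0.75 in 646 and -1.01 in 647. It was below 0 in all 20 tumours measured, with little gap to the next at -1.12 and a lowest of -2.75 in 641 (adjusted p = 0.0172). Its call was lost under quantile normalization, at an adjusted p of 0.710. It was also lost with centring on all measured probes (adjusted p = 0.0639) and with the filter on 10 tumours (adjusted p = 0.0521).

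Plat, the tissue-type activator, was arranged otherwise. It was highest in tumour 663 at 1.35 (arrays 0.54 and 2.15), where Plaur was lowest, then 0.96 in 662 and 0.81 in 670, and it was lowest in 638 at -2.65 and 667 at -2.89. Its adjusted p was 0.0372, and the call was lost on leaving out any of 19 single arrays and with slide run as a block (adjusted p = 0.216). The levels of Plau fell into groups of 4 and 16 tumours, with 647 in the larger. Within the 11 tumours of that group with both values, which included 647, Plau and Plaur gave r = 0.46 (adjusted permutation p = 0.220).

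**Figure D4:**
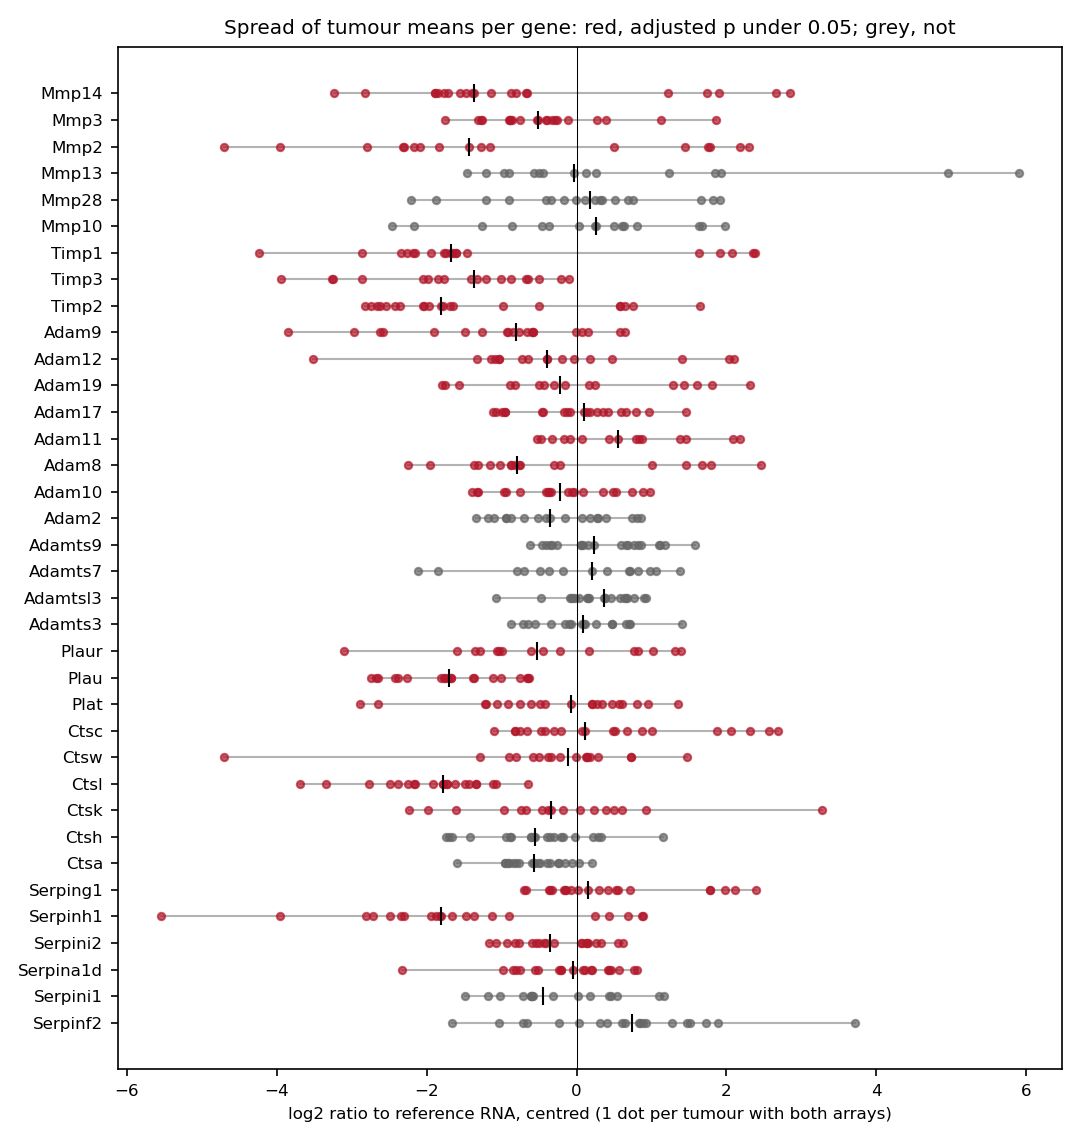
Tumour means of each of the 36 genes (1 dot for each tumour with both arrays, a black tick for the median) as centred log2 ratios, grouped by family from metalloproteinases at the top to serpins at the bottom. Red genes have an adjusted p under 0.05; Mmp14, Timp1 and Serping1 show a group of 5 dots apart on the right, while Plau, Ctsl and Timp3 lie wholly below 0.

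Ctsc, the cathepsin that activates granule serine proteases of myeloid cells, was the clearest of the cathepsins. It was 2.68 in tumour 644, 2.57 in 646, 2.31 in 649, 2.06 in 673 and 1.87 in 647, with the next, 641, at 1.00. The median was 0.11 and the lowest -1.10 in 663 (arrays -1.31 and -0.89). A difference had a standard error of 0.63, the adjusted p was 1.04e-04 and 48 pairs of tumours differed. Macrophage markers were highest in the same 5 tumours, and their part in the Ctsc difference was not tested.

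The other cathepsins that passed each had an order of their own. Ctsk, a collagen-degrading cathepsin best known from osteoclasts, was 3.28 in tumour 673 (arrays 3.33 and 3.22) and lowest in 640 at -2.24 (adjusted p = 0.0445). In the other tumours with both arrays it was no higher than 0.93, in 646. Tumour 660 was at 1.72 on its 1 measured array. The call was lost on leaving out any of 23 single arrays, without centring (adjusted p = 0.0965) and with slide run as a block (adjusted p = 0.107). Tumour 673 was also the one with the highest muscle genes. Ctsw, a cathepsin of cytotoxic T and natural killer cells, was 1.47 in 644 and -4.71 in 663 (arrays -2.44 and -6.98), with every other tumour between 0.73 and -1.30 (adjusted p = 0.0249). The call was lost without centring (adjusted p = 0.102), with slide run as a block (adjusted p = 0.0877) and when the second array of 663 was left out (adjusted p = 0.0863). Ctsl, a broadly expressed lysosomal enzyme, was below 0 in all 21 tumours, highest in 646 at -0.65 and lowest in 656 at -3.69 (adjusted p = 0.0331). Under quantile normalization its adjusted p was 0.736, without tumour 656 it was 0.0992 and with slide run as a block 0.0852. Ctsl passed in 6 of 12 alternative fits. Ctsh (adjusted p = 0.224) and Ctsa (adjusted p = 0.368), also lysosomal enzymes, did not pass.

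Serping1, the inhibitor of complement C1 and of plasma kallikrein, was the clearest serpin (adjusted p = 6.01e-06). It was 2.39 in tumour 644, 2.11 in 646, 1.98 in 673 and 1.78 in both 647 and 649. The other tumours ran from 0.71 in 664 to -0.71 in 638, with a median over all of 0.15. The standard error of a difference was 0.42 and 68 pairs of tumours differed.

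Serpinh1 is a collagen chaperone of the endoplasmic reticulum rather than a protease inhibitor. It was 0.89 in tumour 644, 0.87 in 646, 0.69 in 647, 0.43 in 649 and 0.25 in 673, with the next tumour at -0.90, the median at -1.81 and the lowest, 667, at -5.55 (arrays -7.80 and -3.30). The adjusted p was 1.60e-04 with 40 pairs of tumours apart. It is the only one of the 36 genes with more than 1 probe tested. Its probes passed separately, the first from 0.61 in 644 to -2.63 in 641 (adjusted p = 4.71e-04) and the second from 1.65 in 646 to -6.26 in 667 (adjusted p = 1.06e-07), so the size of the difference depended on the probe.

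Serpini2, a serpin of pancreas, and Serpina1d, an antitrypsin gene of liver, did not follow the 5 tumours. Serpini2 ran from 0.62 in tumour 663 to -1.17 in 643 (adjusted p = 0.00334). Serpina1d ran from 0.80 in 664 to -2.33 in 667 (adjusted p = 0.00392), and it belongs to a set of near-identical antitrypsin genes that a probe may not tell apart. Without centring their adjusted p-values were 0.836 and 0.425, and with slide run as a block that of Serpini2 was 0.0665. Serpini1 (adjusted p = 0.135) and Serpinf2 (adjusted p = 0.268) did not pass. Serpinf2, the inhibitor of plasmin, reached 3.71 in tumour 643 from arrays at 5.67 and 1.75, and its 5 highest tumours included none of 644, 646, 647, 649 and 673.

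Pairwise contrasts counted how often tumours stood apart. Over the 36 genes 661 of 7381 gene and tumour pair contrasts were called at an adjusted p under 0.05 and a log2 difference of at least 1 (8.96%), against 3.48% over all genes. At least 1 pair was called for 30 of the 36 genes and for 50.3% of all genes. Tumour 644 was the higher of the pair in 115 of these contrasts and the lower in 1. Tumour 646 was higher in 105, 673 in 99, 649 in 92 and 647 in 78, and no other tumour in more than 17. Tumour 667 was the lower in 101, 663 in 82 and 656 in 78. Without tumour 656, 580 contrasts were called.

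Levels of several genes ran against the epithelial markers across tumours. Between 25 named genes and the mesenchymal, epithelial and macrophage scores 75 relations were computed. Those to the epithelial score were read over all tumours for the 14 genes that the clustering left as 1 group. Adam19, Serpinh1 and Plaur were among them, although the 5 tumours were the highest 5 for each by tumours with both arrays. The epithelial score was below 0 in all 5, from -0.94 in 647 to -0.18 in 646, and in some others. The correlations therefore also hold the difference between the 5 tumours and the rest. Relations within the rest were not tested. All 14 correlations were below 0, and 7 passed by r and 6 by both r and rho. For comparison, r was below 0 for 50.5% of all 7629 genes and 61.4% of those that differed. It was -0.6 or lower for 6 of the 14 genes, for 11 of the 36 (30.6%), for 320 of the 1928 genes that differed and for 6.34% of all genes. Adam10 gave r = -0.80 over 20 tumours (adjusted permutation p = 1.07e-04) and rho = -0.85 (adjusted permutation p = 1.25e-04). Its r was -0.84 without the 2 tumours farthest from the median of the score and -0.91 within the largest slide run. Adam19 gave r = -0.83 over 16 tumours, Serpinh1 -0.81 over 21, Timp3 -0.70 over 18, Plaur -0.67 over 16 and Plat -0.62 over 21, with adjusted permutation p-values of 3.93e-04, 1.07e-04, 0.00242, 0.00765 and 0.00476. Serpini2 passed by r alone (r = -0.49, adjusted permutation p = 0.0383; rho = -0.49, adjusted permutation p = 0.0504). Mmp3, at -0.39, and Ctsl, at -0.20, were among those that did not pass.

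The mesenchymal and macrophage scores split the tumours into groups of 5 and 16, so relations were read within the larger group, where 50 were computed. By r only 1 passed and by rho 3. Adam9 rose with the macrophage score over 15 tumours (r = 0.77, adjusted permutation p = 0.0250; rho = 0.80, adjusted permutation p = 0.0140). Without the 5 poorly agreeing tumours r was 0.69 over 12 tumours (unadjusted permutation p = 0.0102). Of the 15 tumours, those with an array in slide run 2 had macrophage scores from -1.20 in 663 to -0.37 in 664. Their Adam9 levels ran from -3.85 in 656 to -0.66 in 653. Tumours 639, 640, 641, 643 and 669 had none there. Their scores ran from -0.20 in 640 to 0.41 in 641, and Adam9 from -0.92 in 639 to -0.59 in 641. Tumours 638 and 667, also of other runs, had scores of -0.54 and -0.67 and Adam9 at -0.85 and -2.97. The part of slide run in this relation was not tested. With the mesenchymal score, Serping1 gave r = 0.71 (adjusted permutation p = 0.0508) and rho = 0.73 (adjusted permutation p = 0.0347) over 16 tumours. Serpinh1 gave r = 0.47 (adjusted permutation p = 0.227) and rho = 0.80 (adjusted permutation p = 0.0140). Mmp14 did not pass there (r = 0.65, adjusted permutation p = 0.0753), nor did Ctsc with the macrophage score (r = 0.62, adjusted permutation p = 0.0753).

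Genes that work beside these proteases were read from a list of 31, of which 15 were measured and 11 differed between tumours by limma. Spint2, an inhibitor of membrane serine proteases in epithelia, was 3.81 in tumour 667 and -3.40 in 649, with a median of 2.29 (adjusted p = 4.86e-08). Lrp1, the receptor that clears protease and inhibitor complexes, was 2.33 in 647 and -4.56 in 656, with a median of -2.64 (adjusted p = 6.94e-10). Cd44, a hyaluronan receptor that can hold metalloproteinases at the surface, was 1.18 in 649 and -4.79 in 663 (adjusted p = 1.15e-05). Slpi, an inhibitor of leukocyte elastase, was 1.75 in 649 and -4.20 in 638 (adjusted p = 6.83e-06). Spint2 thus had its lowest level in 1 of the 5 tumours in which Timp1 and Serping1 were high. Bsg, Furin, Dpp4 and Cast did not pass. Cstb, Lgmn, Anxa2, S100a10, Tfpi2, Capn1 and Capn2 were the others that passed.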

How the data were processed

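The deposited values are log2 ratios of the dyes of 42 two-colour arrays, 2 for each of 21 tumours, in dye-swapped pairs per the labels; how background was corrected, how ratios were normalized and which dye a channel carried are steps not given in the sources used here. Their top value, 16.61, was set missing (15512 values, 2.14%), as were the 24.1% of blank cells. Of 22800 probes, 16874 had 1 gene symbol in the platform annotation, 134 several and 5792 none. Orientation came from the first eigenvector of correlations between the arrays' pair differences and was the same in both random parts of the probes for all 42 arrays. Arrays of an orientation correlated at a median of 0.296 and a lowest of -0.239. The overall sign and the authors' centring stay unknown. After turning, array medians over the tested genes ran from -1.67 to 1.00.

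Probes of a gene were averaged (9407 probes, 7629 genes), and each array was centred on its median over these genes, so that levels and tests share a scale. limma 3.58.1 in R 4.3.3 fitted the tumour as a factor with 21 levels. Arrays lacking a value were dropped from that gene's fit, and a tumour's level is given only where both arrays had one. All 210 pairwise contrasts were adjusted over all genes and pairs. Relations used 100000 permutations, two-sided, and mclust 6.1.1 for groups of at least 6 tumours. Arrays were put into slide runs (9, 13 and 20 arrays) by the serial number each title carries; nothing labels a run as a batch. The fit was tested on simulated data. The arrays of a tumour are technical repeats.

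The genes and all lists were chosen with earlier results of these data known. Genes named with values are up to 6 that passed in each family, by widest range, plus a list of well-known members whatever their result. Of the latter, Mmp9, Mmp11, Adamts1, Ctsb, Ctsd, Serpinf1 and Serpinb5 did not reach 15 tumours. A single gene of the cathepsin family is not reported here. Alternatives were other centring, quantile normalization, dye or slide run in the model, other filters, the probe as unit and leaving out arrays or tumours.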

Additional observations from a re-analysis of the deposited data

How the results depend on the processing

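Of the 24 genes that passed, 9 passed in every alternative tried: Mmp14, Mmp2, Mmp3, Timp1, Adam9, Plaur, Ctsc, Serping1 and Serpinh1. The count of 24 of 36 became 14 without centring, 15 with slide run as a block, and 11 of 14 where all 21 tumours had to be measured. Leaving out single arrays gave 19 to 27 genes, and 1657 to 2409 of all genes. The count over all genes, 1928, was 2903 with dye orientation as covariate and 1340 to 2321 otherwise. Without the 5 tumours whose arrays correlate under 0.1, chosen after seeing the data, 25 genes passed, and the relations without tumours 656 and 667 or these 5 were also added then. The cause of these shifts was not tested, apart from the smaller number of genes or tumours where a filter changed. Calls were also lost when single arrays were left out for Ctsl (7 arrays) and, for 1 array each, Adam11, Adam8 and Ctsw. Slide run as a block ended 9 calls and no centring 10. By replicate number, no paired analysis was possible because replicate numbers were given in accession order and pair nothing across tumours. Dye orientation does match arrays across tumours, and it was fitted as a covariate. That fit gave 26 of the 36 genes, against 24 in the main fit, and 2903 of all genes, against 1928.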

Other observations

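A further 33 genes of these families were measured on both arrays of 10 to 14 tumours and were fitted with the wider filter. Of these, 3 passed limma's test adjusted over 10119 genes, and 5 had an unadjusted p under 0.05. Over all genes 17.4% passed under this filter, a larger share than among these 33. Mmp9, the gelatinase of neutrophils and macrophages, was 3.63 in tumour 646 and -1.63 in 665, with a median of -0.55 over 14 tumours (adjusted p = 0.00230). Mmp12, the elastase of macrophages, was 3.62 in 644 and -1.60 in 653 over 11 tumours (adjusted p = 0.0202). Serpinb3a, a serpin of squamous epithelia, ran the other way at 4.49 in 656 and -1.39 in 646 over 14 tumours (adjusted p = 0.0121), with near-identical gene copies that a probe may not tell apart. Adamts1 (adjusted p = 0.0518), Ctsb (adjusted p = 0.184) and Ctsd (adjusted p = 0.360) did not pass.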
